A study of Mus musculus with 4 samples.

Results

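The respiratory chain of mouse haematopoietic stem cells (HSCs) was examined through 2 groups of genes. The nuclear group held the 89 features whose gene name carries a standard symbol of a complex I to V protein (Nduf, Sdh, Uqcr, Cox4 to Cox8 or Atp5), and the mitochondrial group held the 12 features placed on the mitochondrial chromosome, together 101 of 34315 features. Both groups were chosen by name or place and not by any measured value. Of the nuclear members, 85 had a deposited fold change and 82 reached a mean of at least 10 normalised counts over both arms, as did 11 of the 12 mitochondrial features, and only these are called measured. HSCs were sorted from bone marrow of C57BL/6 mice as SP-KSL-CD150+ cells, a dye-excluding population with stem cell surface markers, and polyA-selected RNA was sequenced. The wild-type group had 4 libraries that the labels call technical replicates of a single biological replicate, while the design text speaks of duplicates. The spread between them, and any p-value resting on it, may therefore be technical, and whether an SD below spans 2 animals, 2 pools or 2 preparations is not known. The other arm, Dnmt3a-KO HSCs of the same sort, lacks by its label a DNA methyltransferase that sets new methylation marks. It is represented here only by the authors' mean count per feature and their comparison with wild type: the table also holds 8 columns of per-library values headed for this arm, which match no sample label at hand and were not used. The sources used here do not give the allele, the Cre driver if one was used, or the age and number of the animals.

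Oxidative phosphorylation passes electrons from NADH through complex I, or from succinate through complex II, to coenzyme Q, complex III, cytochrome c and complex IV, and the proton gradient so built drives ATP synthase, complex V. Complex II is encoded wholly in the nucleus, while the other complexes join nuclear subunits to a few core subunits made inside the mitochondrion from mitochondrial DNA. HSCs are known for relying more on glycolysis than their progeny do, and for raising mitochondrial respiration when they differentiate.

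Many nuclear subunit promoters are known to hold sites for the factors NRF1, GABP and YY1, and 4 members with such a match illustrate them. They were taken toward the 2 ends of the fold changes, among members with a mean of at least 50, a single promoter entry and a match in the bases printed. Members with wider fold changes that lacked these were passed over. Atp5g2, a form of the c ring subunit of ATP synthase, and Ndufa8, an accessory subunit of complex I, had lower knockout means. Uqcrh, the hinge protein of complex III, and Ndufa11, another complex I accessory subunit, had higher ones. Each line gives the 250 bases before the RefSeq transcription start in GRCm38.p6, read 5′ to 3′ on the gene's strand, and capitals mark the motif match. The windows lie at chr15:102671048-102671297 on the minus strand (Atp5g2), chr2:36049339-36049588 on the minus strand (Ndufa8), chr4:116075071-116075320 on the minus strand (Uqcrh) and chr17:56717512-56717761 on the plus strand (Ndufa11).
Atp5g2: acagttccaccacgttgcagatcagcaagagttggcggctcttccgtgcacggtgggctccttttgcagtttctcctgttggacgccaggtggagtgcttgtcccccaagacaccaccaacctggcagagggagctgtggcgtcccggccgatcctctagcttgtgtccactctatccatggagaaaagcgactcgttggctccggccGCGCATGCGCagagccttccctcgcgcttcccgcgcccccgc
Ndufa8: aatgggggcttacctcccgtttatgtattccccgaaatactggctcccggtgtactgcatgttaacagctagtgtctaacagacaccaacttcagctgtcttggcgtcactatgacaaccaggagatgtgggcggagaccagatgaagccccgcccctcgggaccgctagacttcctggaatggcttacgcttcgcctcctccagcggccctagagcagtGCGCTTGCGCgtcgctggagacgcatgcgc
Uqcrh: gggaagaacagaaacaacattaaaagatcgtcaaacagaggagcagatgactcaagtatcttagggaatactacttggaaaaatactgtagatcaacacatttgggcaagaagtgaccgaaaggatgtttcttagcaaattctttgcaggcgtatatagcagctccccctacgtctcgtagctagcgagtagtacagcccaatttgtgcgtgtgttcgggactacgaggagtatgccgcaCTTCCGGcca
Ndufa11: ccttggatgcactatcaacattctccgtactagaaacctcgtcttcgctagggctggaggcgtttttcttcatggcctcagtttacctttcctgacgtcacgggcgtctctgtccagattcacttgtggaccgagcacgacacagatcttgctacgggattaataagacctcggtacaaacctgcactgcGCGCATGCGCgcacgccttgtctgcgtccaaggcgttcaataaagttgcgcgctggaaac
The capitals in Atp5g2, Ndufa8 and Ndufa11 match the NRF1 letters (GCGC, any base, then TGCGC) and begin 42, 30 and 60 bases before the start. In Uqcrh they match the GABP letters CCGGAAG on the opposite strand, 10 bases before the start. The NRF1 letters thus stood in front of members with lower (Atp5g2, Ndufa8) and with higher (Ndufa11) knockout means.

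Across the promoter table, which runs from 250 bases before to 50 after each start, 71 of the 89 nuclear members had an entry, with 77 promoters between them. The NRF1 letters, searched on both strands, occurred in 23.4% of the member promoters and in 4.60% of all 32851 promoters. The GABP letters occurred in 23.4% of member promoters against 8.86% of all, and the YY1 letters AAGATGGCG in 11.7% against 1.40%. A YY1 match can overlap a GABP match at AAG or an NRF1 match at GCG. At least 1 of the motifs was present in 50.6% of member promoters and 13.6% of all. The median log2 fold change, from the authors' deposited table, was -0.44 for the 17 measured members with an NRF1 match and -0.28 for the 52 without. For GABP the same medians from the authors' deposited table were -0.16 with a match (18 members) and -0.38 without (51 members), and for YY1 they were -0.46 (8 members) and -0.29 (61 members). A match is a run of letters and does not show binding.

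The libraries and the sort were checked before the members were compared. Wild-type totals ran from 40709659 to 47408552 counts. Libraries 1 and 2 differed from each other by little more than counting noise, as did libraries 3 and 4 (median chi-square per degree of freedom over features 0.763 and 0.682), while the lowest value for a pair across the 2 sets was 11.99. Each set was therefore averaged and counted as 1 value, so n = 2 for any wild-type SD. Summed stem cell markers ranged from 178052 to 217264 normalised counts in wild type and were 187413 in the knockout mean, with all 12 markers present. For other cells the knockout mean lay outside the wild-type range in 4 lists: 14 erythroid genes summed to 45311 to 59349 in wild type and 20527 in the knockout mean, 9 megakaryocyte genes to 48559 to 61299 and 80235, 12 lymphoid genes to 2979 to 3376 and 675, and 6 mast cell and basophil genes to 979 to 1743 and 139. It lay inside the range for 12 neutrophil and monocyte genes (28306 to 65026, knockout mean 46023) and 8 stromal and endothelial genes (4547 to 6978, knockout mean 4626). Between the wild-type sets the neutrophil and monocyte list differed most, at 65026 and 64083 in libraries 1 and 2 against 28434 and 28306 in libraries 3 and 4. The stem cell, erythroid, megakaryocyte, mast cell and stromal sums were instead higher in libraries 3 and 4, the stem cell sum at 217264 and 213278 against 179541 and 178052. Called lower per the authors' deposited table were 6 of 14 erythroid, 4 of 9 megakaryocyte, 5 of 11 tested lymphoid, 4 of 6 mast cell and basophil, 2 of 8 stromal, 1 of 12 stem cell and 0 of 12 neutrophil and monocyte genes, beside 3.70% of all tested features. The megakaryocyte sum was higher all the same. Of the lymphoid list, Cd3e, Il7r and Ms4a1 were at 0 in the knockout mean. The part of these shifts in the results below was not tested. Dnmt3a itself had 8229, 8569, 5400 and 5208 normalised counts in wild-type libraries 1 to 4 and 8424 in the knockout mean, with an adjusted p of 0.952 per the authors' deposited table. The sources used here do not give the deleted part of the gene, so its summed reads are no check of the label.

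In wild-type HSCs the nuclear genes of the respiratory chain spanned a wide range of levels, with ATP synthase genes at the top and tissue forms of complex IV at the bottom. Normalised counts per kb of exon had a median of 2257 for the 7 nuclear core subunits of complex I and 2586 for its 28 accessory subunits, 3623 for complex II, 4094 for complex III, 6255 for the 12 ubiquitous complex IV subunits and 5537 for the 15 complex V subunits. The median over all features was 353. ATP synthase held the highest members: Atp5b, the catalytic beta subunit, stood at 22355 per kb and Atp5a1, the alpha subunit, at 17610 per kb. The leading members of the other complexes were Cox4i1 (12029 per kb), Uqcrh (10166), the flavoprotein Sdha of complex II (6084) and Ndufb9 of complex I (5051).

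Some ubiquitous subunits were read far below their partners, although the subunits of a complex are assembled in fixed ratios. Cox7c stood at 299 per kb, Ndufb4 at 372 and Atp5l at 594, each chosen here after its level was seen. Of the 50-base runs in the GENCODE vM21 transcript of Atp5l, 84.8% also occurred in transcripts of 14 other genes, 12 of them pseudogenes. The same share was 37.0% for Ndufb4 and 27.9% for Cox7c. Whether the counting dropped or split reads that fit several genes is not stated in the sources used here, so these 3 levels are uncertain. Ndufa11 was also low per kb (409), but on an exon length of 2657 bases against 918 in its GENCODE transcript, and its 1087 normalised counts were not low. Among all 82 measured members, the 35 with no shared run had a median of 3012 per kb and the 44 with up to 50% shared had 3381, while the 3 with more than 50% shared had 647. Those 3, however, ranged up to 6166 per kb.

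The c ring of ATP synthase is encoded by 3 nuclear genes that yield the same mature protein, and they differed widely in level. Atp5g3 stood at 10442 per kb in wild type, Atp5g1 at 1054 and Atp5g2 at 320. Atp5g3 gave 6440, 6423, 7688 and 7600 normalised counts in wild-type libraries 1 to 4, and 6404 in the knockout mean. The knockout mean of Atp5g3 was just under the lowest wild-type library. Atp5g1 gave 880, 856, 951 and 951, with 645 in the knockout mean. For Atp5g2 the values were 227, 146, 179 and 270, with 115 in the knockout mean. The order Atp5g3, Atp5g1, Atp5g2 was the same in all 4 libraries and in the knockout mean.

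Forms of complex IV subunits that are known from single tissues were low or near silent, with Cox6b2 as the exception. Cox6b2, the testis form of Cox6b, gave 614, 572, 523 and 554 normalised counts in wild type and 379 in the knockout mean, a level of 943 per kb against 8022 for its ubiquitous partner Cox6b1. Cox4i2, a form of Cox4 known from lung and low oxygen, gave 57.8, 49.2, 102 and 69.5 in wild type and 142 in the knockout mean. Cox7a1, the heart and skeletal muscle form of Cox7a, gave 2.10, 6.28, 9.54 and 2.82, with 28.0 in the knockout mean. Cox7a1 passed the count minimum only through the knockout arm, where it was highest. Cox8c, another testis form, had 0 counts in every wild-type library, which allows up to 0.0737 CPM in the shallowest. Cox8b and Ndufa4l2 had reads in only 1 wild-type library, Cox6a2 in 3, and Cox7b2 at most 6.57 normalised counts.

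No nuclear member was called different between the arms: 0 of 85 tested members were higher and 0 were lower at an adjusted p under 0.05 per the authors' deposited table, where 3.15% of 21778 tested features were called higher and 3.70% lower. The smallest adjusted p of a member per the authors' deposited table was 0.176, for Cox7a1, with a log2 fold change of 2.12. If the authors' values are Benjamini-Hochberg adjusted, its unadjusted p was at most 0.0216, and no other member had such an upper bound under 0.05. The tool DESeq is named in the submitters' processing notes, and no second test between the arms could be fitted, since only the mean of the knockout arm was used.

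Below that threshold, the values of nuclear members lay mostly on the lower side of wild type. Over the 82 members with a mean of at least 10 normalised counts, the median log2 fold change per the authors' deposited table was -0.33, and 64 were negative (78.0%). Over all 17684 features with that mean, the median per the authors' deposited table was -0.04 and 51.7% were negative. The members' quartiles were -0.52 and -0.03, a narrower band than the quartiles of -0.75 and 0.62 over all features per the authors' deposited table. The members' median thus stood at -0.29 relative to that of all features, a gap that a change of scaling between the arms leaves nearly as it is. Counts of negative members do depend on scaling: with library totals the median over all features moved to -0.38, and 75 of 82 members (91.5%) and 65.2% of all features were negative. Restricted to features with a mean of at least 1000, the medians per the authors' deposited table were -0.29 for 66 members and 0.15 for 8375 features.

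**Figure D1:**
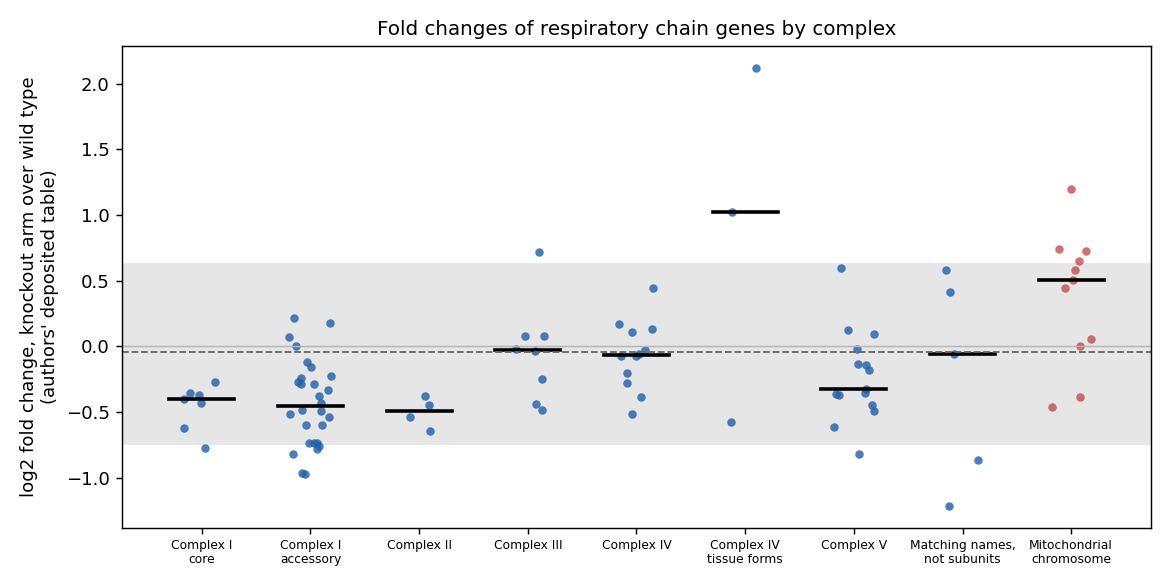
The vertical axis is the log2 fold change of the knockout arm over wild type from the authors' deposited table, for each member with a mean of at least 10 normalised counts, grouped by complex; thick bars are medians, the grey band spans the quartiles of all features (-0.75 to 0.62) and the dashed line is their median (-0.04). All 7 core and 24 of 28 accessory complex I members lie below 0, complexes III and IV have medians near 0 (-0.03 and -0.07), and 9 of 11 mitochondrial features lie above 0.

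The 2 wild-type library sets also differed in these genes, which bears on the size of every fold change. Libraries 3 and 4 both exceeded libraries 1 and 2 for 69 of 82 members, where 42.3% of all features and 52.8% of those with a mean of at least 1000 did so, and both were below for 6 members (39.4% of all features). The median difference was 0.24 on the log2 scale. Ratios of set 3 and 4 over set 1 and 2 ran from 0.843 (Ndufs7) to 1.66 (Cox7a2l), and no member was 2-fold apart, against 13.3% of all features. The neutrophil and monocyte markers were lower in libraries 3 and 4, while the stem cell, erythroid, megakaryocyte, mast cell and stromal markers were higher, and their part in this was not tested. Set against libraries 1 and 2 alone, the members' median log2 difference of the knockout mean was -0.19, and against libraries 3 and 4 alone -0.43. The knockout mean lay below both sets for 55 of 82 members (43.0% of all features, 36.1% of those with a mean of at least 1000), between them for 17, and above both for 10 (40.9% of all features).

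**Figure D2:**
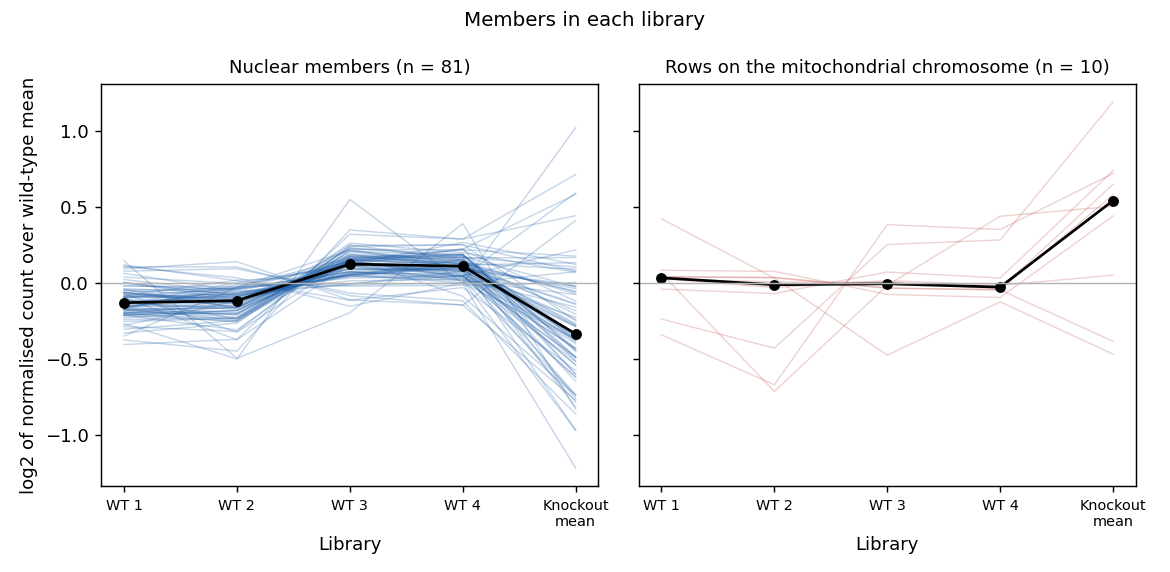
Each thin line is 1 member with a mean of at least 100 normalised counts (81 nuclear, 10 mitochondrial), drawn as log2 of its normalised count over its wild-type mean (vertical axis) in the 4 wild-type libraries and the knockout mean (horizontal axis), and black points are medians. Most nuclear lines step up from libraries 1 and 2 to libraries 3 and 4 and end lowest in the knockout mean, while the mitochondrial median is near level across wild type and highest in the knockout mean, with 8 measured features above both wild-type sets there and AK163440 and AK141672 below both.

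Complex I, the entry point for electrons from NADH, was the largest group, with 35 measured nuclear subunits. Of these, 31 had negative fold changes and 30 had a knockout mean below both wild-type sets, beside 51.7% and 43.0% of all features (36.1% below both at a mean of at least 1000), with a median log2 fold change of -0.43 per the authors' deposited table. All 7 nuclear core subunits, which carry the flavin and the iron-sulphur clusters or bind quinone, were negative (median -0.40 per the authors' deposited table), as were 24 of the 28 accessory subunits (median -0.46). Ndufs7, a core subunit beside the quinone site, was the lowest of the core group, at 58.5% of the wild-type mean, followed by Ndufs1 at 64.9%, Ndufv2 at 74.0% and Ndufs8 at 75.8%. The reads of Ndufs1 cannot be told from those of Gm11602 where the features overlap.

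Among accessory subunits the widest gaps were in Ndufc2 and Ndufb3, both of the membrane arm. Ndufc2 (mm9 chr7:104548513-104556310) gave 1753, 1840, 2224 and 2167 normalised counts in wild-type libraries 1 to 4 and 1018 in the knockout mean. Ndufb3 (mm9 chr1:58643443-58652792) gave 1274, 1367, 1392 and 1365, with 689 in the knockout mean. Every wild-type library was above the knockout mean for both genes. Log2 fold changes of -0.97 stand for both per the authors' deposited table, with adjusted p-values of 0.658 for Ndufc2 and 0.659 for Ndufb3. Ndufs4, an accessory subunit of the peripheral arm whose loss causes Leigh-like disease, gave 1666, 1677, 2343 and 2192, with 1116 in the knockout mean. Ndufa8 gave 2113, 2056, 2360 and 2327, with 1284 in the knockout mean. These 2 also stood lower in the knockout mean than in any wild-type library. The highest accessory subunit, Ndufb9, gave 2880, 2794, 3663 and 3735, with 2288 in the knockout mean. Ndufa11 went the other way, with 1052, 1061, 1111 and 1123 in wild type and 1265 in the knockout mean.

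The 4 subunits of complex II, succinate dehydrogenase, behaved alike in sign. Sdhc, a membrane anchor (mm9 chr1:173059288-173080734), gave 3429, 3567, 4505 and 4408 normalised counts in wild type and 2537 in the knockout mean. Sdhb, the iron-sulphur subunit, gave 3171, 2912, 3532 and 3449, with 2247 in the knockout mean. Both stood lower in the knockout mean than in any wild-type library. Sdhd, the other anchor, gave 4144, 4202, 5791 and 5621, with 3622 in the knockout mean. Sdha gave 15871, 16173, 18791 and 18378, with 13289 in the knockout mean. For these 2 as well the knockout mean was below all 4 wild-type libraries, and in all 4 genes the gap to libraries 1 and 2 was the smaller one. Log2 fold changes per the authors' deposited table ran from -0.65 (Sdhc) to -0.38 (Sdha), with the smallest adjusted p at 0.831.

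Complexes III and IV stood closer to wild type as groups. In complex III, 5 of 8 members were negative with a median log2 fold change of -0.03, and in complex IV 8 of 12 with a median of -0.07, per the authors' deposited table. Over all features with a mean of at least 1000 that median was 0.15. Against libraries 3 and 4 alone the medians of complexes III and IV were -0.18 and -0.17, and against libraries 1 and 2 alone 0.07 and 0.08. The difference between complexes was not tested. Uqcr11 (71.3% of the wild-type mean) and the core proteins Uqcrc1 (73.8%) and Uqcrc2 (84.1%) were lower in the knockout mean, although for Uqcrc2 the value lay between the wild-type sets, and its reads overlap those of Pdzd9. Among the 12 ubiquitous subunits of complex IV, Cox5b was lowest at 69.9% of the wild-type mean, and Ndufa4, now counted with complex IV, stood at 76.4%. Cox4i1, the ubiquitous form of Cox4, gave 7026, 7058, 9252 and 9093 in wild type and 9110 in the knockout mean, within the wild-type range.

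Uqcrh and Cox7a2l had the highest fold changes among the subunits of complex III and the ubiquitous subunits of complex IV, and also the widest gaps between the wild-type sets among measured members. Uqcrh (mm9 chr4:115739570-115747675) gave 4159, 4259, 6886 and 6736 normalised counts in wild-type libraries 1 to 4 and 9053 in the knockout mean. Cox7a2l (mm9 chr17:83901257-83913673) gave 6750, 6415, 11168 and 10704, with 11914 in the knockout mean. Both genes were thus already 1.62-fold and 1.66-fold higher in libraries 3 and 4 than in libraries 1 and 2. In the authors' deposited table the log2 fold changes were 0.71 (adjusted p 0.799) for Uqcrh and 0.44 (adjusted p 0.912) for Cox7a2l. For Cox7a2l the knockout mean exceeded libraries 1 and 2 by 0.86 on the log2 scale but libraries 3 and 4 by 0.12. An overlapping feature, HAG_016882, shares reads with Cox7a2l.

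In complex V, 12 of 15 members were negative with a median log2 fold change of -0.33 per the authors' deposited table. The 2 most abundant members differed: Atp5a1 gave 37813, 37995, 47640 and 46947 normalised counts in wild type and 33233 in the knockout mean, below every library. Atp5b gave 38520, 38587, 45392 and 44627, with 41276 in the knockout mean, inside the wild-type range. Atp5g2 (56.6% of the wild-type mean), Atp5k, a small membrane subunit (65.2%), and Atp5g1 (70.9%) were the lowest. Atp5d, the delta subunit of the central stalk, was the clearest exception, with 4383, 4511, 4881 and 4776 in wild type and 7005 in the knockout mean. Its log2 fold change was 0.59 per the authors' deposited table (adjusted p 0.853).

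Some names met the rule without belonging to a complex. Atp5s, known as a coupling factor of ATP synthase and not a structural subunit, gave 667, 633, 556 and 618 normalised counts in wild type and 265 in the knockout mean, the lowest ratio of any measured member (43.1% of wild type). Cox4nb, a subunit of an endoplasmic reticulum membrane complex and the neighbour of Cox4i1, stood at 54.9%. The succinate dehydrogenase assembly factors Sdhaf1 and Sdhaf2 stood at 150% and 96.2%, and Atp5sl at 133%. Atp5l-ps1 and Atp5l2 gave at most 4.19 and 11.3 normalised counts in any wild-type library. Leaving all of these out gave a median log2 fold change of -0.34 over 77 subunits per the authors' deposited table.

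On the mitochondrial chromosome the counts were concentrated in few features. DQ539915 (mm9 chrM:5327-6938, plus strand) held 40.2% of all mitochondrial counts in wild type and Cytb (chrM:12406-15288, plus strand) 26.7%. The feature Cytb is named for the cytochrome b of complex III, but its exon length of 2882 bases exceeds the 1144 bases of the mt-Cytb transcript in GENCODE vM21. It begins further upstream, where the known gene order places Nd5 and Nd6 of complex I, so its counts are not those of cytochrome b alone. The file names DQ539915 only by a transcript label. It lies directly before Cox2, where the known gene order places the core subunit Co1 of complex IV. Per kb of exon, DQ539915 stood at 195053 normalised counts, Cytb at 72527, BC071253 at 42953, AK018753 at 28628, AK163440 at 27463 and mt-Nd4, a proton-pumping core subunit of complex I, at 24634. The mt-Nd4 feature also has an exon length, 1666 bases, above the 1378 bases of its GENCODE vM21 transcript. Its counts may therefore not be those of Nd4 alone. AK018753 and AK163440 lie before DQ539915, and AK140265, the first feature, stood at 4781 per kb. The known gene order places the ribosomal RNA genes near its start.

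Cox2 and Atpase6.1, core subunits of complex IV and complex V, were read far below their neighbours. Cox2 (chrM:7010-7699) gave 663, 386, 628 and 861 normalised counts in wild type and 901 in the knockout mean, a level of 921 per kb. Atpase6.1 (chrM:7766-8607) gave 23.1, 28.3, 21.9 and 19.7, with 23.1 in the knockout mean, or 27.7 per kb. Parts of the mitochondrial chromosome have copies in the nuclear genome. In GENCODE vM21 all 50-base runs of mt-Co2 (100%) and 99.5% of those of mt-Atp6 also occurred in transcripts of other genes, all annotated as pseudogenes, against 62.2% for mt-Nd4, 51.1% for mt-Co1, 7.61% for mt-Nd5 and 0% for mt-Cytb. The part of these copies in the low counts was not tested. On the opposite strand, GU332589, HNG_042901, AK141672 and BC071253 overlap AK018753, Atpase6.1, mt-Nd4 and Cytb. Since the named kit keeps no strand, each of these pairs cannot be told apart where they overlap.

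**Figure D3:**
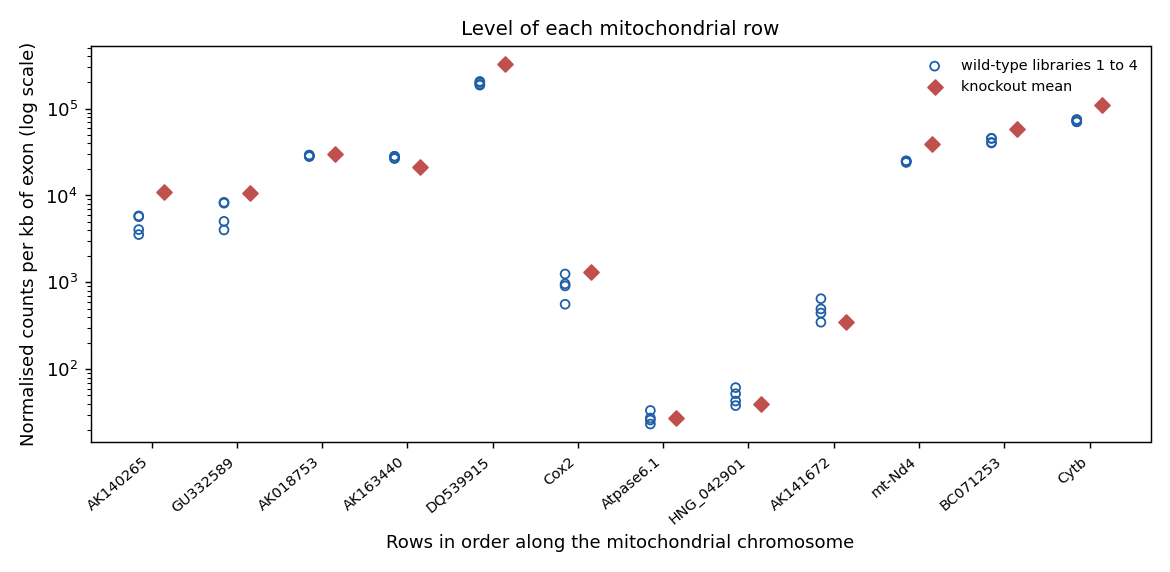
The vertical axis gives normalised counts per kb of exon on a log scale for the 12 mitochondrial features in their order along the chromosome (horizontal axis); open circles are the 4 wild-type libraries and diamonds the knockout mean. DQ539915 is highest at 195053 per kb in wild type, Cox2 and Atpase6.1 sit at 921 and 27.7, and for mt-Nd4, Cytb and DQ539915 the diamond lies above all circles.

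None of the 12 mitochondrial features was called in either direction per the authors' deposited table, where 6.84% of tested features were called, and the smallest adjusted p was 0.529 for AK140265. No upper bound on an unadjusted p was under 0.05. The values lay mostly above wild type: over 11 measured features the median log2 fold change per the authors' deposited table was 0.50, 9 were positive, and the knockout mean was above both wild-type sets for 8 (40.9% of all features) and below both for 2 (43.0%). Of the 8375 features with a mean of at least 1000, 4247 lay above both sets, and their median log2 fold change was 0.15. With library totals as scale the mitochondrial median was 0.17, and 4 of 11 were negative (36.4% against 18.2%). On that scale the median over all features was -0.38 and 65.2% were negative. The mitochondrial median stood 0.55 above that of all features with either scale. DQ539915 gave 305568, 299455, 330428 and 321471 normalised counts in wild type and 525427 in the knockout mean. Cytb gave 215402, 213903, 204201 and 202584, with 312980 in the knockout mean. Both therefore lay above every wild-type library, while the 4 libraries stayed close together.

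Within the mitochondrial group the features were not uniform. For mt-Nd4 the wild-type values were 41789, 41245, 41177 and 39947 against 64477 in the knockout mean. AK018753 was nearly level, with 74601, 71594, 73927 and 72340 in wild type and 75781 in the knockout mean. AK163440 was lower in the knockout mean, at 22794 against 30588, 30560, 29080 and 28851. AK140265 and GU332589 varied within wild type, by 1.52-fold and 1.82-fold between the library sets. AK140265 gave 3169, 2775, 4459 and 4551, with 8558 in the knockout mean. GU332589 gave 8002, 6368, 13243 and 12951, with 16739 in the knockout mean. For both, the knockout mean was further above libraries 1 and 2 than above libraries 3 and 4. BC071253 gave 106991, 106462, 95830 and 94478, with 137187 in the knockout mean. AK141672 gave 445, 339, 238 and 304, with 240 in the knockout mean, and HNG_042901 had at most 13.6 normalised counts in any library.

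The ratio of counts on the mitochondrial chromosome to counts of nuclear members needs no scaling between libraries. Its mitochondrial sum takes every feature there, also those near the start, where the known gene order places the ribosomal RNA genes. Summed nuclear members made up 0.693%, 0.694%, 0.803% and 0.806% of all counts in wild-type libraries 1 to 4 (exact binomial 95% interval for library 1, 0.691% to 0.696%, which covers counting error only) and 0.520% in the knockout mean. Mitochondrial features made up 1.84%, 1.81%, 1.75% and 1.75% (library 1, 1.83% to 1.84%), and 2.11% in the knockout mean. Such shares use library totals as scale, on which the median log2 fold change over all measured features was -0.38 and 65.2% were negative. On that scale the median was -0.67 over nuclear members and 0.17 over mitochondrial features. The nuclear share was lower, and the mitochondrial share higher, in the knockout mean than in any wild-type library. Without Cytb and DQ539915, however, the mitochondrial share was 0.622%, 0.608%, 0.572% and 0.572% in wild type and 0.591% in the knockout mean, inside the wild-type range. That remainder held features that moved in both directions. Of all mitochondrial counts, mt-Nd4 made up 5.24% in wild type and 5.53% in the knockout mean. AK018753 made up 9.34% and 6.50%, and AK163440 3.80% and 1.96%. The ratio over all features was 2.65, 2.61, 2.19 and 2.17 in wild type, 2.40 ± 0.320 (SD, n = 2 library sets), and 4.05 in the knockout mean. That is 1.69 times the wild-type mean, 1.54 times libraries 1 and 2 and 1.86 times libraries 3 and 4. With only Cytb, mt-Nd4, Cox2 and Atpase6.1 over nuclear subunits, the knockout ratio was 1.70 times the wild-type mean. Without Cytb and DQ539915 the ratio was 0.897, 0.876, 0.712 and 0.709 in wild type and 1.14 in the knockout mean, 1.42 times the wild-type mean. Since only the mean of the knockout arm was used, the ratio was not tested between the arms. In bulk RNA fewer cells of a type cannot be told apart from less RNA per cell.

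**Figure D4:**
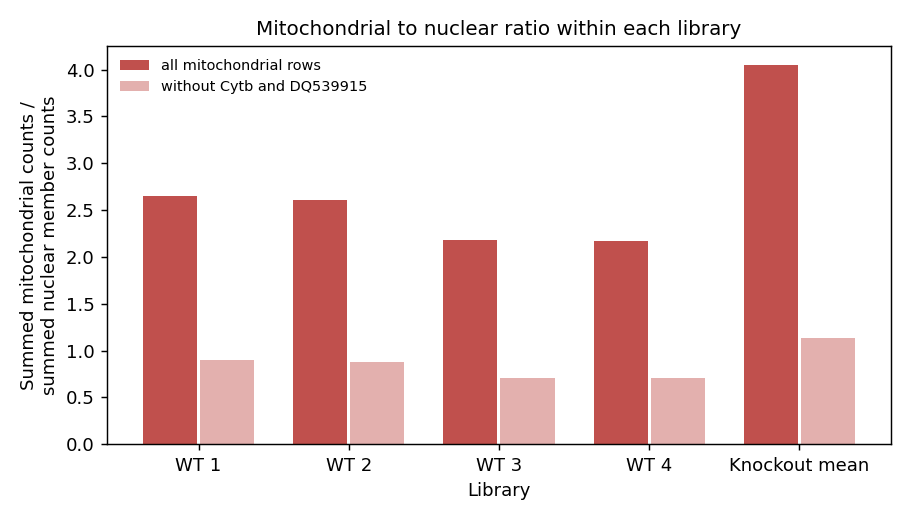
Bars, from 0, give the summed counts of mitochondrial features over the summed counts of nuclear members within each wild-type library and within the knockout mean (horizontal axis), with all 12 features (dark) and without Cytb and DQ539915 (light). Wild-type ratios lie between 2.17 and 2.65 and the knockout mean is at 4.05; the lighter bars lie between 0.709 and 0.897 in wild type and at 1.14 in the knockout mean.

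Genes that make, regulate or feed the respiratory chain held 5 called genes among 136 tested per the authors' deposited table, or 3.68%, which is below the 6.84% called over all features. In the list of mitochondrial DNA maintenance and expression, 1 of 24 tested genes fell and 0 rose, beside 3.70% and 3.15% of all tested features. Tfb1m, which methylates the small mitochondrial ribosomal RNA (mm9 chr17:3519256-3557713), gave 801, 709, 898 and 915 normalised counts in wild type and 118 in the knockout mean (log2 fold change -2.81, adjusted p 0.0244 per the authors' deposited table). Its relative Tfb2m, the mitochondrial transcription factor, gave 682, 633, 618 and 559, with 1488 in the knockout mean, and did not pass (adjusted p 0.494 per the authors' deposited table). For both genes the wild-type libraries lay close together and apart from the knockout mean, in opposite directions.

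Of 13 tested regulators of mitochondrial biogenesis, 2 fell and 0 rose, beside 3.70% and 3.15% of all tested features. Myc, a transcription factor that drives growth and mitochondrial genes among many others, gave 10612, 10787, 12603 and 12502 normalised counts in wild type and 1440 in the knockout mean (log2 fold change -3.01, adjusted p 0.0139 per the authors' deposited table). Esrrg, an orphan nuclear receptor of oxidative tissues, was low throughout at 46.3, 47.1, 122 and 116, with 12.2 in the knockout mean (log2 fold change -2.67, adjusted p 0.0479 per the authors' deposited table), and its wild-type sets differed 2.54-fold. Nfe2l2, the antioxidant regulator, had the largest value that did not pass in the other direction, with 4658, 4687, 6142 and 5982 against 15010. Of the factors whose letters were searched in the promoters, Nrf1 and Gabpa stood at log2 fold changes of 0.13 and -0.03 and Yy1 at 1.14 per the authors' deposited table, none called.

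Among 13 genes of coenzyme Q synthesis and handling, Coq10b rose and 0 fell, beside 3.15% and 3.70% of all tested features. Coq10b, a coenzyme Q binding protein, gave 329, 306, 450 and 426 normalised counts in wild type and 5571 in the knockout mean (log2 fold change 3.88, adjusted p 0.00119 per the authors' deposited table). Otherwise 10 of the 13 were negative, among them Adck3, a kinase-like protein of coenzyme Q synthesis, with 5407, 5105, 9344 and 8960 against 1877 (adjusted p 0.172 per the authors' deposited table). Of 22 genes of the citric acid cycle and pyruvate entry, Pdk4 rose and 0 fell, beside the same shares of all tested features. Pdk4, a kinase that shuts off pyruvate dehydrogenase, gave 158, 184, 339 and 322, with 2709 in the knockout mean (log2 fold change 3.43, adjusted p 0.00447 per the authors' deposited table). Its relative Pdk2 stood at 47.3% of the wild-type mean and was not called.

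Where 6.84% of all tested features were called per the authors' deposited table, no gene was called in the remaining lists. They hold 28 tested assembly factors (19 negative, median log2 fold change -0.36), 20 outer membrane, import and carrier genes (16 negative, median -0.32), 11 uncoupling and alternative electron entry genes (median -0.62 over 9 measured) and 5 subunits or carriers whose names the rule misses (median -0.11). The lowest assembly factors were Lyrm7 and Cox15, which serve complexes III and IV, at 28.7% and 33.8% of the wild-type mean. In the carrier list Opa1, the inner membrane fusion protein, stood at 54.3% and Slc25a3, the phosphate carrier, at 162%. For electron entry, Dhodh stood at 31.3% and Gpd2 at 305%. The missed subunit Ndufab1 and the ATP synthase inhibitor Atpif1 had log2 fold changes of -0.76 and -0.75 per the authors' deposited table.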

How the data were processed

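Sequenced RNA of 4 wild-type HSC libraries was made with a Qiagen RNeasy Micro kit, polyA selection and a TruSeq RNA kit, per the labels. The authors deposited whole-number read counts per feature and library. Per the submitters' processing notes, mm9 and DESeq belong to the processing, with no role or version stated; aligner, counter and annotation are not given in the sources. A length-scaled signal deposited by the authors had the same ratio to the count in every library, so it served only to obtain exon length. The authors' deposited log2 fold change is knockout over wild type, and their deposited p-value was read as adjusted, since 17567 of 21778 values are shared with another feature and 1549 equal 1. A further 8 of 30 columns, headed as libraries of the knockout arm, were left out because they match no sample label at hand, so no test of the arms was fitted.

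Size factors by the median of ratios divided the counts (0.951, 0.955, 1.048 and 1.065). The knockout mean, on the authors' unscaled count scale, was placed beside them by a log2 offset of 0.399 (SD 0.0050 over 13025 features), found from the deposited fold changes. A feature was measured if the mean over both arms was at least 10, and called at an adjusted p under 0.05. No test between arms was run. Scaling alternatives used edgeR 4.0.16 for TMM factors. Other steps used Python with numpy 2.4.6, pandas 2.3.3 and scipy 1.17.1. The size factors, the offset, the chi-square and the folds were tested on simulated data, and the remaining steps were not. Depths of 40709659 to 47408552 counts allow up to 0.0737 CPM at 0 reads (3 counts as the floor).

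Members, lists and alternatives were chosen with earlier results of these data known. Named nuclear genes were, per complex, the highest per kb and up to 4 of the largest fold changes with a mean of at least 50, all tissue forms and other rule matches, and the 3 c ring genes; of other lists, called genes and the 2 largest values. Ndufa11, Ndufb4, Cox7c, Atp5l, Cox6b1, Atp5a1, Ndufa4, Nrf1, Gabpa and Yy1 were added after their values were seen. Sequences are from RefSeq and GENCODE vM21, and no coordinates were converted between builds. Some items are not reported here.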

Additional observations from a re-analysis of the deposited data

How the results depend on the processing

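Of 52 alternatives run over 6 results, 43 stayed within the spread of the wild-type library sets or within 1.5 times a count. No median fold change and no ratio reversed its direction, while shares and counts had no direction to reverse. Leaving out each library, or taking a single set, moves a share or the ratio by less than that spread almost by construction. Those alternatives could hardly have gone otherwise and are no check of these results. A further 8 alternatives varied the threshold (0.01 or 0.1) or the subset behind the counts of called members. They had to give 0, since the smallest adjusted p was 0.176. With library totals, with and without mitochondrial features, the nuclear median log2 fold change was -0.67 and -0.66, and the mitochondrial median 0.17 and 0.18, since the median of all features shifted to -0.38 and -0.37; the cause was not tested. The mitochondrial median was 0.35 against libraries 3 and 4 alone, a comparison added after seeing the data. Without DQ539915 the mitochondrial share of wild-type counts was 1.08% instead of 1.79%, lower by construction. Without Cytb and DQ539915 the ratio to the nuclear group was 1.42 instead of 1.69 times wild type. That shift was not fixed in advance, so the size of the ratio depends on these 2 features. Between wild-type sets, 0 nuclear members were 2-fold apart, 3 were 1.5-fold apart (Cox7a2l, Uqcrh and Cox4i2), and 2 were 2-fold apart with no count minimum (Cox7b2 and Atp5l-ps1, both of few reads). Leaving out each library in turn gave nuclear medians from -0.37 to -0.28, mitochondrial medians from 0.47 to 0.57, nuclear shares from 0.730% to 0.768%, mitochondrial shares from 1.77% to 1.80% and ratios from 1.63 to 1.75. No paired analysis was possible because the samples form a single group. Of 82 measured nuclear members 66 had a mean of at least 1000 normalised counts, but Cox7a1, Cox7b2, Cox8b, Cox8c, Cox6a2, Ndufa4l2, Atpase6.1 and HNG_042901 rest on few reads.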

Other observations

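Proteins of the mitochondrial ribosome, which translates the mitochondrial messages, were gathered by their Mrpl and Mrps names after the other results were seen. Of 79 features, 78 were measured, and 67 of these had negative log2 fold changes per the authors' deposited table, with a median of -0.51 beside -0.04 over all measured features. The knockout mean lay below both wild-type library sets for 62 of them (43.0% of all features). Of the 79 features, 0 were called lower and 1 higher per the authors' deposited table, beside 3.70% and 3.15% of all tested features. The feature called higher, named Mrps6,Slc5a3, joins the ribosomal gene to a neighbouring inositol transporter (log2 fold change 3.37, adjusted p 0.00513 per the authors' deposited table). Its reads cannot be assigned to either gene here.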
